A study of Rattus norvegicus with 24 samples.

Results

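Cultures of neonatal rat testis cells were compared at 48 h and at 2 h after luteinising hormone (LH) and follicle-stimulating hormone (FSH) were added, so that a late sample was set against an early one from the same litter. The comparison used 6 of the 24 libraries of the series, 3 at each time, taken by their labels as the 2 h and 48 h libraries of litters 1, 2 and 3. The series sequenced RNA from a 3-dimensional culture of dissociated testis and from the tissue it came from. One experiment followed untreated cultures and tissue of a single litter, and the other followed 3 litters before and after the hormones. The second experiment holds 12 libraries, at 0, 2, 12 and 48 h, and the libraries at 0 h, taken before the hormones, and at 12 h gave the background for the 2 times compared. A 6 h collection named in the design was not analysed here.

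Both groups came from wild-type Sprague Dawley rats at postnatal day 5 and received the same treatment. Whole testis cell mixtures, neither enriched nor depleted for any cell type, were seeded in Matrigel (a basement membrane extract) and fed a serum-free medium of which a fixed share was renewed daily. After 10 days in culture, FSH was added at 20 mIU/mL and LH at 50 mIU/mL, with fresh medium, and RNA was taken 2 h or 48 h later. Each library pools 3 cultures of one litter, so a litter is 1 biological replicate and each group has 3. Untreated cultures kept for the same hours were not analysed here, so the effects of the hormones, of fresh medium and of 2 more days in culture cannot be told apart.

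LH and FSH act in the testis on different cells. LH binds Lhcgr on Leydig cells, which make androgens from cholesterol, and FSH binds Fshr on Sertoli cells, which nurse the germ cells and secrete inhibin and anti-Muellerian hormone. Both receptors raise cyclic AMP, which activates protein kinase A, and the first transcripts to follow are those of immediate early genes, whose products are short-lived transcription factors, ahead of slower changes in enzymes and secreted proteins.

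Sequencing depth moved with the group. The 2 h libraries held 20531359 to 28298743 reads and the 48 h libraries 16504214 to 16899897, so that 1 read corresponded to 0.0353 to 0.0487 CPM, the depth-scaled read number of a gene, at 2 h and to 0.0592 to 0.0606 at 48 h. In a principal component analysis of the 6 libraries the first component (43.4% of the variance) placed the 2 h libraries at -21.95 to -9.95 and the 48 h libraries at 23.6, 0.753 and 23.6 for litters 1, 2 and 3. The 48 h library of litter 2 therefore lay nearest to the 2 h libraries. Some transcripts that every cell uses are listed at or near 0 in the table, for example Cyb5a at 0 and Aldoa at no more than 0.390 CPM in any of the 6 libraries, so that a value of 0 is given below only as a listing. The labelled tissue was checked against its markers: Sox9 averaged 144 CPM and Amh 138 CPM at 2 h, Ddx4, a germ cell gene, 5.95 CPM, and Insl3, a Leydig cell hormone, was listed at 0 in all 6 libraries.

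Of 12200 genes tested, 1282 were higher at 48 h (10.5%) and 1469 lower (12%), 2751 or 22.5% in all, at an adjusted p under 0.05 by limma on log2(CPM + 1) with litter as a block. Most differences were small: 101 genes rose and 43 fell by at least 2-fold on that scale. Of the 1282 higher genes 1271 were higher in each litter, and of the 1469 lower genes 1463 were lower in each. The calls were made on these same within-litter differences, so that agreement is no separate support. Among all 12200 genes tested, 2958 were higher in each litter and 3674 lower in each. The values at 2 h and 48 h did not overlap for 3265 genes (26.8%). The number of calls depended on the design. Without the litter block 1013 genes were called, with only the 6 libraries and the block 1389, and without litter 1 just 434, without litter 2 1213 and without litter 3 1600. Leaving out 1 library gave 1450 without the 2 h library of litter 1, 1532 without its 48 h library and 1624 without the 48 h library of litter 3. The split also moved with the scaling, since higher genes made up 46.6% of the calls here, 54.0% after TMM scaling and 57.4% with DESeq2, while the median difference of all tested genes moved only from -0.02 to 0.00 and 0.01.

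In the text below values are CPM in the order of litters 1, 2 and 3, levels are compared only within a gene, and a log2 fold change is the mean of the 3 within-litter differences in log2(CPM + 1), 48 h minus 2 h, with its standard error (SE). A gene rose or fell where its limma adjusted p was under 0.05. Genes named by size were chosen from calls whose groups did not overlap, so for them the lack of overlap is a rule of choice. In RNA from mixed cells, fewer cells of a type and less RNA per cell cannot be told apart. List counts under other settings have their own background, since fewer of all tested genes were called there. Without the litter block 4.34% of all tested genes were higher and 3.96% lower. Without litter 1 the shares were 1.67% and 1.89%, without litter 2 5.25% and 4.70%, and without litter 3 6.69% and 6.43%.

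**Figure D1:**
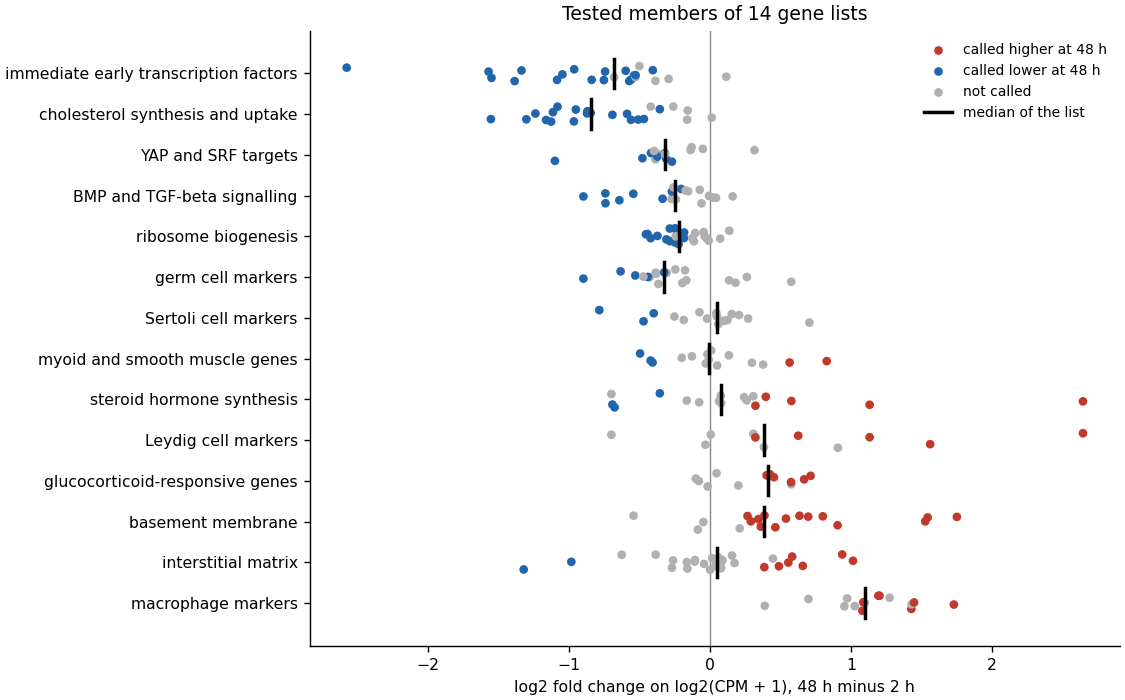
Log2 fold changes on log2(CPM + 1), 48 h minus 2 h, of the tested members of 14 gene lists, with each point 1 gene, red for genes that rose, blue for genes that fell and grey for genes that did not pass the test. The black bars are the list medians, from -0.85 for cholesterol synthesis and uptake to 1.09 for macrophage markers.

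Immediate early transcription factors were lower at 48 h. Of 23 tested, 17 fell and 0 rose, against a background of 12% lower among all tested genes, with a list median of -0.68 against -0.02 for all genes. The 6 that did not pass were Fosl1, Egr4, Ier3, Ier5, Myc and Btg2. All 17 fell most in litter 3. Their median within-litter difference was -1.46 there, against -0.70 in litter 1 and -0.61 in litter 2. Without the litter block 10 fell, without litter 1 5, and without the 48 h library of litter 3 10. Among all tested genes 3.96%, 1.89% and 6.77% were lower under these settings.

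Fosb, a subunit of the AP-1 transcription factor, had 16.5, 21.3 and 111 CPM at 2 h and 4.06, 7.07 and 4.02 CPM at 48 h. The 2 h value of litter 3 stood far above the other two, and the groups did not overlap. The fold change of Fosb was -2.58 ± 0.53 (adjusted p = 0.00787), the steepest fall among the genes named by size, and the within-litter difference was -1.79, -1.47 and -4.48. Its partner gene Fos went from 14.2, 22.1 and 36.2 CPM to 6.60, 11.4 and 7.57 CPM, also without overlap (-1.34 ± 0.30, adjusted p = 0.0104).

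Nr4a1 encodes an orphan nuclear receptor that cyclic AMP induces in steroid-producing cells. It measured 49.8, 62.5 and 86.4 CPM at 2 h and 19.8, 32.4 and 21.7 CPM at 48 h. Each 2 h value lay above each 48 h value, and litter 3 had the highest 2 h value. The difference was -1.39 ± 0.23 (adjusted p = 0.0031). Its relative Nr4a3 fell from 7.92, 12.7 and 27.4 CPM to 3.64, 6.06 and 3.20 CPM (-1.55 ± 0.39, adjusted p = 0.0172), and the zinc finger factor Egr3 from 19.2, 33.9 and 55.1 CPM to 9.27, 12.2 and 10.1 CPM (-1.57 ± 0.27, adjusted p = 0.004). Neither overlapped between times. The falls of Nr4a1 and Egr3 passed under all 25 alternative settings. Those of Fosb, Fos and Nr4a3 passed neither without litter 1 nor with the 6 libraries alone and no block. Those of Fos and Nr4a3 were also lost without the litter block in all 12 libraries, and that of Nr4a3 without the 48 h library of litter 3.

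The promoters of the 3 fallen genes and the 2 risen genes chosen by rule are shown as examples of the immediate early (Fosb, Nr4a1), cholesterol (Idi1), basement membrane (Lama2) and steroid (Cyp11a1) lists. Sequences are from RefSeq on GRCr8, 250 bases before the gene start to 50 after it, 5′ to 3′ on the gene's strand. Capitals mark every match to 9 searched motifs on either strand: the cyclic AMP response element TGACGTCA and its shorter form TGACG, which it contains, the CArG box of serum response factor, the AP-1 site TGANTCA, the sterol element SRE-1, CCAAT, the SF-1 site CAAGGTCA, the NR4A site AAAGGTCA and TATAAA. The SF-1 and NR4A letters share AGGTCA, with no match to either in these 5.
Fosb, chr1:88089135-88089434, minus strand: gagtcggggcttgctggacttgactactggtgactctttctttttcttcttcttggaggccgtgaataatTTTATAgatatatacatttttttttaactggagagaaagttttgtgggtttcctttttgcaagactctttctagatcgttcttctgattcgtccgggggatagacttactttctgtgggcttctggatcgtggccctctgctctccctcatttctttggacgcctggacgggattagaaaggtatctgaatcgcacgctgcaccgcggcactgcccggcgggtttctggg
Nr4a1, chr7:134259888-134260187, plus strand: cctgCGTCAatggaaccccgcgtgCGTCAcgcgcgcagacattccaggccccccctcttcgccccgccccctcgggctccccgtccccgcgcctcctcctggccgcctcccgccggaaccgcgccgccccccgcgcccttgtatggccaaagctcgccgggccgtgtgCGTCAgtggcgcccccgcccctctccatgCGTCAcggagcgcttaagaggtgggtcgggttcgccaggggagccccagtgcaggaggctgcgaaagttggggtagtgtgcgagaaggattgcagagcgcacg
Idi1, chr17:66547475-66547774, minus strand: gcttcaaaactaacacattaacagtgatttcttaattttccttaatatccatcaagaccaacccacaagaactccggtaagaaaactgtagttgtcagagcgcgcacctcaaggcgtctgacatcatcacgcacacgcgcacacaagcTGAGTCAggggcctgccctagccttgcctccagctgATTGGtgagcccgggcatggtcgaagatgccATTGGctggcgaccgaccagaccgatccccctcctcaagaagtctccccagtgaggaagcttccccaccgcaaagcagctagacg
Lama2, chr1:19491896-19492195, plus strand: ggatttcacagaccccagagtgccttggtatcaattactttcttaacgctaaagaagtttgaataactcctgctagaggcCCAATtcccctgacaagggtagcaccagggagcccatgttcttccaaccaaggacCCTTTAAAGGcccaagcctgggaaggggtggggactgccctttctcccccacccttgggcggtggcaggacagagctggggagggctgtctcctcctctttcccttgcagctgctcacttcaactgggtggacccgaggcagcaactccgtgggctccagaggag
Cyp11a1, chr8:67318415-67318714, plus strand: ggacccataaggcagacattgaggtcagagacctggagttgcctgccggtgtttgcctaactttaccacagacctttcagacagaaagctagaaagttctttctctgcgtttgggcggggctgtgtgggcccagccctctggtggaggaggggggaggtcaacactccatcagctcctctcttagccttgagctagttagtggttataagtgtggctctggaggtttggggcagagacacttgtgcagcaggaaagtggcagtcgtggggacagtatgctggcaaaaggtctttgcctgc
The Nr4a1 promoter held 4 matches to TGACG, of which the nearest began 53 bases before the start.

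Over the list, 10 of the 15 immediate early genes with a promoter entry held TGACG, as did 9 of 16 cholesterol genes, 2 of 16 basement membrane genes and 1 of 10 steroid genes, against 31.8% of the 9733 tested genes with an entry and 21.96% of all 27457 promoters. The CArG box was present in 5 of the 15, against 1.33% of tested genes with an entry, and TGACGTCA in 3, against 3.22%. Among 16 cholesterol genes with an entry, 0 held SRE-1 and 13 held CCAAT, which occurred in 37.9% of tested genes, and Idi1 held it at 66 and at 35 bases before its start. In Lama2, 1 CCAAT and 1 CArG match lay upstream. Cyp11a1 had no match within its 300 bases, and Fosb had a TATAAA match on the opposite strand, 180 bases before the annotated start. The shares describe letters in these windows and say nothing of binding.

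**Figure D2:**
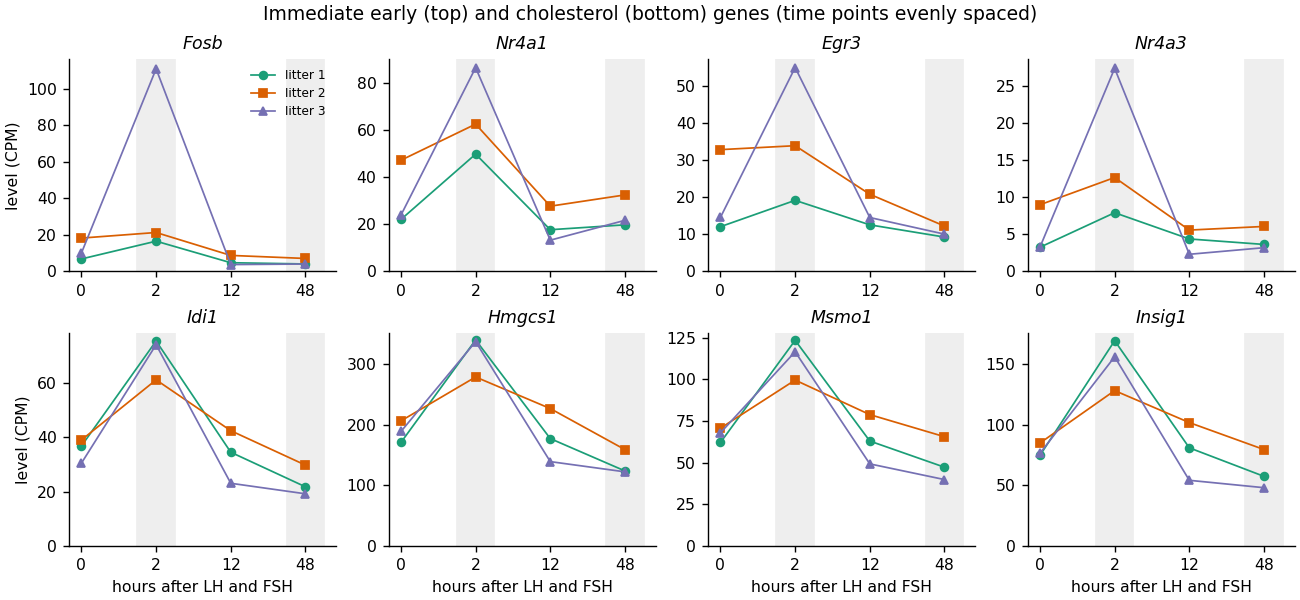
Level in CPM of 4 immediate early genes (top) and 4 cholesterol genes (bottom) at 0, 2, 12 and 48 h after LH and FSH, 1 line per litter, with time points evenly spaced and grey bands marking the 2 h and 48 h groups compared. In litter 3 Fosb reached 111 CPM at 2 h and 4.02 CPM at 48 h.

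At 12 h most of this difference was already present. The median of the 23 immediate early genes was -0.65 for 12 h minus 2 h and -0.08 for 48 h minus 12 h. It was 0.38 for 2 h minus 0 h and -0.39 for 48 h minus 0 h. These comparisons share libraries with the main one and are given as values side by side. Fosb averaged 11.7 ± 5.89 CPM (SD, n = 3) at 0 h and 5.73 ± 2.65 CPM at 12 h, so the mean at 48 h, 5.05 ± 1.75 CPM, lay below the mean before the hormones. The fall from 0 h was not called for Fosb (-1.01 ± 0.53, adjusted p = 0.275).

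Feedback genes of the same pathways moved less evenly. Of 17 phosphatases and inhibitors that restrain ERK signalling, 5 fell (29.41%) and 2 rose (11.76%), with a median of -0.16. Among all tested genes 12% were lower and 10.5% higher, so the rises lay near the background. Phlda1, Dusp14, Dusp8 and Dusp5 fell most. Dusp8, a phosphatase of the MAP kinases, went from 27.5, 31.3 and 29.7 CPM to 15.4, 20.7 and 12.0 CPM without overlap (-0.87 ± 0.12, adjusted p = 0.00158). Errfi1, a cytoplasmic inhibitor of the EGF receptor, rose from 29.8, 37.6 and 54.6 CPM to 75.6, 60.0 and 61.1 CPM (0.71 ± 0.17, adjusted p = 0.0156), and Egfr itself rose by 0.85 ± 0.25 (adjusted p = 0.0349), where the 2 h and 48 h values did not overlap. Spred2, another inhibitor of the pathway, rose by 0.36 ± 0.10. The 2 rises of this list became 0, and the 5 falls 3, without the litter block, and 0 rose without the 2 h library of litter 1 or 2. The call for Egfr was lost under 11 of the 25 alternative settings and those for Errfi1 and Spred2 under 7 each.

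Of 24 genes of cyclic AMP feedback and CREB targets, 3 rose and 4 fell (median -0.06), shares near the background of 10.5% higher and 12% lower. The counts became 2 and 1 without the litter block, and 0 and 1 without litter 1. Prkar2b, a regulatory subunit of protein kinase A, rose by 0.61 ± 0.11 and the phosphodiesterase Pde4a by 0.58 ± 0.11, while another regulatory subunit, Prkar1a, fell (-0.22 ± 0.05). Cited2, a transcriptional coregulator, fell from 79.0, 72.0 and 113 CPM to 56.4, 54.3 and 63.8 CPM (-0.56 ± 0.09, adjusted p = 0.00339). The inhibitor genes of the kinase moved apart, with Pkig at 0.24 ± 0.06 and Pkia at -0.44 ± 0.10, both called. The call for Pkig was lost under 9 of the 25 alternative settings, that for Prkar1a under 7 and that for Pkia under 4. Each was lost without the litter block and without litter 1. Crem, whose short form represses cyclic AMP targets, measured 21.3, 40.8 and 22.4 CPM at 2 h and 23.02, 24.5 and 20.5 CPM at 48 h. Its litter 2 value at 2 h was the high one, the groups overlapped and the difference of -0.24 ± 0.15 was not called (adjusted p = 0.271). Pde4d, which degrades cyclic AMP, was likewise not called (-0.24 ± 0.15, adjusted p = 0.274).

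Genes of cholesterol synthesis and uptake were lower at 48 h. Of 23 tested, 18 fell and 0 rose, against 12% lower among all tested genes. The median was -0.85, and 19 were lower in each litter. The 5 that did not pass were Dhcr7, Mvk, Pmvk, Ebp and Tm7sf2. Litters 1 and 3 each gave the largest fall for 9 of the 18, and litter 2 for 0, with median differences of -1.13, -0.57 and -1.06 in litters 1, 2 and 3. In place of 18, 14 genes fell without the litter block, 12 with the 6 libraries alone and no block, and 11 without litter 1. Among all tested genes 3.96%, 1.12% and 1.89% were lower under these settings.

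Idi1, an isomerase of the mevalonate pathway, measured 75.6, 61.3 and 74.3 CPM at 2 h and 21.8, 29.8 and 19.2 CPM at 48 h. The 2 h values were close together, the 48 h value of litter 2 was the highest of its group, and the groups lay far apart. Its fold change was -1.56 ± 0.16 (adjusted p = 0.000825). Insig1, which holds the sterol sensor SCAP in the endoplasmic reticulum, fell from 169.6, 128 and 156 CPM to 57.4, 79.6 and 48.0 CPM (-1.30 ± 0.18). Hmgcs1, which makes the substrate of HMG-CoA reductase, fell from 339.6, 278 and 337 CPM to 123.4, 159 and 121.9 CPM (-1.24 ± 0.14), and Msmo1, a sterol demethylase, from 124, 99.6 and 117 CPM to 47.2, 65.5 and 39.8 CPM (-1.16 ± 0.16). None of the 3 overlapped between times, and all 4 genes passed under each of the 25 alternative settings.

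The 4 cholesterol genes were higher at 2 h than before the hormones. Idi1 averaged 35.5 ± 4.44 CPM (SD, n = 3) at 0 h and 70.4 ± 7.92 CPM at 2 h, and that rise was called (0.97 ± 0.16, adjusted p = 0.0404), as was that of Hmgcs1 (0.75 ± 0.14, adjusted p = 0.0483). Insig1 (0.93 ± 0.18, adjusted p = 0.0516) and Msmo1 (0.75 ± 0.16, adjusted p = 0.0559) missed the threshold there. Across all tested genes 41 were called higher at 2 h than at 0 h (0.336%). The list median was 0.41 for 2 h minus 0 h, -0.50 for 12 h minus 2 h, -0.26 for 48 h minus 12 h and -0.38 for 48 h minus 0 h. Fatty acid synthesis, whose genes share regulators with the sterol pathway, had 2 of 13 genes lower, Fads2 and Me1, and 0 higher, with a median of -0.07. That share is near the background of 12%, and 0 were lower without the litter block. The call for Fads2 was lost under 17 of the 25 alternative settings and that for Me1 under 9.

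Genes that turn cholesterol into steroids moved in both directions. Of 17 tested, 5 rose (29.41%) and 3 fell (17.65%), against 10.5% higher and 12% lower among all tested genes. The median was 0.08, and 1 rose and 1 fell without the litter block. Cyp17a1, the enzyme that commits steroids to androgens, measured 0.601, 11.6 and 1.37 CPM at 2 h and 31.0, 36.3 and 8.82 CPM at 48 h. It was higher at 48 h in each litter, by 4.32, 1.56 and 2.05, but the 2 h value of litter 2 lay above the 48 h value of litter 3, so the groups overlapped. The fold change was 2.64 ± 0.41 (adjusted p = 0.00243). At 0 h it averaged 0.898 ± 1.03 CPM and at 12 h 14.7 ± 9.94 CPM, and 48 h minus 0 h, where 2.29% of all tested genes were called higher, was called as well (3.71 ± 0.41, adjusted p = 0.00219).

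Cyp11a1, the side-chain cleavage enzyme that starts steroid synthesis, went from 6.96, 13.3 and 8.89 CPM to 25.8, 33.6 and 11.8 CPM (1.13 ± 0.32, adjusted p = 0.0291). Litter 3 changed least, and its 48 h value lay below the 2 h value of litter 2. Scarb1, a receptor that takes up lipoprotein cholesterol, went from 46.7, 58.4 and 43.5 CPM to 84.5, 101 and 46.9 CPM (0.58 ± 0.17, adjusted p = 0.0306), with overlap through litter 3. These rises did not pass without the litter block, nor when any single 2 h library or the 48 h library of litter 1 or 2 was left out. Akr1c14, a steroid reductase, rose by 0.39 ± 0.11, and Nr5a1, a nuclear receptor that drives steroid enzyme genes and was named after its values were seen, by 0.32 ± 0.07. The call for Akr1c14 was lost under 8 of the 25 alternative settings, among them the fit without the litter block.

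Fdx1 encodes ferredoxin, which carries electrons to Cyp11a1. It fell from 24.4, 39.9 and 33.0 CPM to 18.3, 22.9 and 17.7 CPM without overlap (-0.68 ± 0.14, adjusted p = 0.00846), after a called rise from 0 h to 2 h (0.83 ± 0.14, adjusted p = 0.0404). Hsd17b7 (-0.69 ± 0.18) and Stard4 (-0.36 ± 0.10), which fell too, also stand in the cholesterol list. Star, which moves cholesterol into mitochondria, had 65.8, 194 and 94.8 CPM at 2 h and 59.7, 72.4 and 64.0 CPM at 48 h. It was lower at 48 h in each litter, mostly through litter 2, the groups overlapped and the difference of -0.70 ± 0.24 was not called (adjusted p = 0.0583). Leaving out the 2 h library of litter 1 brought it to -0.93 (adjusted p = 0.0435). Star averaged 50.9 ± 13.5 CPM at 0 h and 39.3 ± 15.1 CPM at 12 h.

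Hsd17b3, which completes testosterone, measured 20.1, 9.74 and 24.4 CPM at 2 h and 19.3, 21.3 and 23.02 CPM at 48 h and was not called (0.31 ± 0.26, adjusted p = 0.414). Cyp19a1, aromatase, had 0.777, 0.633 and 1.01 CPM and 0.121, 1.13 and 1.78 CPM and was not called (0.06 ± 0.27, adjusted p = 0.888). Hsd3b1 was among the genes to be named, and no value was matched to it.

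Of the 2 hormone receptors, Lhcgr had 0.247, 5.07 and 1.74 CPM at 2 h and 6.79, 8.26 and 0.888 CPM at 48 h. It was higher at 48 h in litters 1 and 2 and lower in litter 3, with a difference that was not called (0.90 ± 0.43, adjusted p = 0.148). Without the 48 h library of litter 3 it was called at 1.45 (adjusted p = 0.0376). Fshr had 12.6, 11.8 and 10.3 CPM and 12.1, 13.0 and 9.29 CPM (-0.02 ± 0.11, adjusted p = 0.896), with full overlap.

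**Figure D3:**
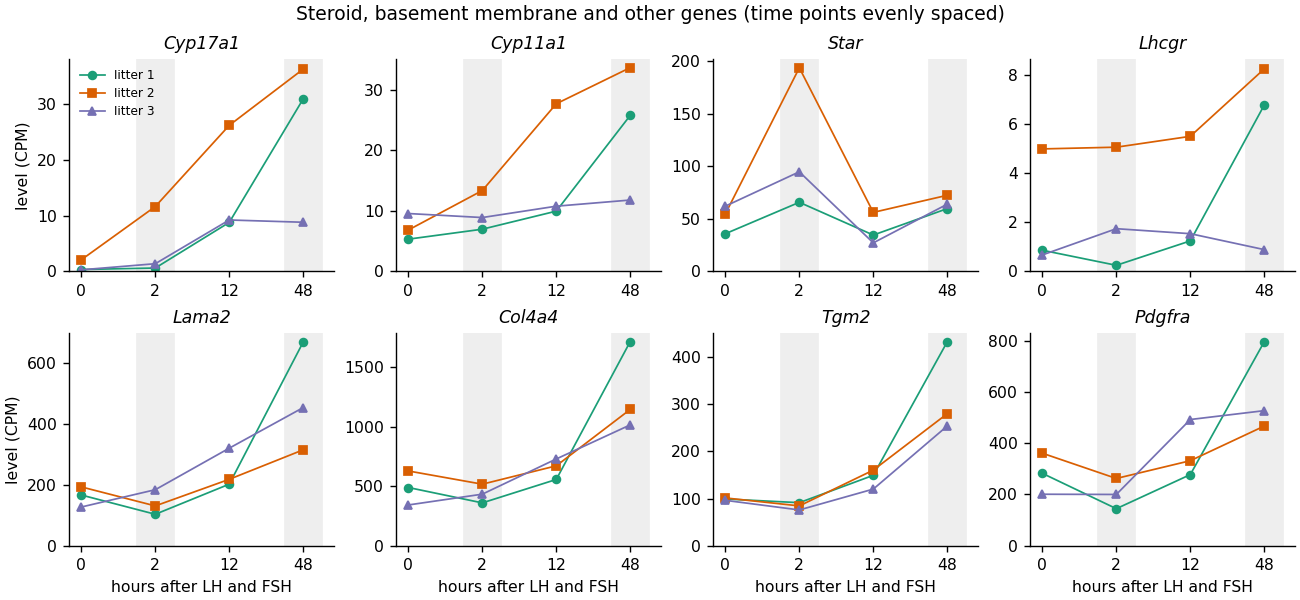
Level in CPM of 4 genes of the steroid pathway and the LH receptor (top) and 4 genes of matrix and stroma (bottom) at 0, 2, 12 and 48 h, 1 line per litter, with time points evenly spaced and grey bands marking the 2 h and 48 h groups compared. Lama2 in litter 1 reached 671 CPM at 48 h from 103 CPM at 2 h.

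The inhibin subunit genes Inha and Inhbb rose modestly in the mixed cells. Inha, the alpha subunit that makes a dimer an inhibin, measured 265, 236 and 258 CPM at 2 h and 334, 411 and 268 CPM at 48 h, without overlap (0.39 ± 0.12, adjusted p = 0.0387). Litter 2 had the highest 48 h value, and in litter 3 the difference was 0.05. Inhbb, a beta subunit, went from 651, 743 and 605 CPM to 819, 1083 and 715 CPM with overlap (0.37 ± 0.12, adjusted p = 0.0412). Both calls were lost under 13 of the 25 alternative settings, among them the fit without the litter block, and leaving out any of several single libraries. Inhba, the other beta subunit, had 30.001, 18.9 and 42.1 CPM and 28.5, 21.5 and 38.5 CPM and was not called (-0.01 ± 0.12, adjusted p = 0.974).

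Tgfbr3, betaglycan, the co-receptor that lets inhibin bind activin receptors, rose from 52.1, 92.2 and 101 CPM to 216, 164 and 179 CPM (1.22 ± 0.21, adjusted p = 0.00351). Its lowest 48 h value lay above its highest 2 h value, and it passed under all 25 alternative settings. The activin receptor Acvr1b rose by 0.29 ± 0.10 and Acvr2a fell (-0.32 ± 0.09), which completes the 4 higher and 1 lower of the 12 tested genes of inhibin, activin, follistatin and anti-Muellerian hormone (median 0.01). Acvr1b (limma adjusted p = 0.0494) overlapped between times and differed by only 0.04 in litter 2. Its call was lost under 16 of the 25 alternative settings and that for Acvr2a under 12. The background is 10.5% higher and 12% lower, and only 1 of the 12 was higher and 0 were lower without the litter block.

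Amh, anti-Muellerian hormone, measured 122.97, 133 and 159 CPM at 2 h and 145, 151 and 154 CPM at 48 h and was not called (0.12 ± 0.11, adjusted p = 0.43). Nor were Sox9, the regulator of Sertoli cell identity (0.20 ± 0.17, adjusted p = 0.404), or Gdnf, which maintains spermatogonial stem cells (0.04 ± 0.14, adjusted p = 0.849).

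Basement membrane genes rose together. Of 19 tested, 14 rose and 0 fell, against 10.5% higher among all tested genes, with a median of 0.38, and 16 were higher in each litter. All 6 collagen IV chains were among them. Lama4, Lamb2, Nid2 and Col18a1 were among those that did not pass. Each of the 14 changed most in litter 1, with median differences of 0.80, 0.57 and 0.36 in litters 1, 2 and 3. Without litter 1, 5 rose, without litter 2 or the 2 h library of litter 1 9, and without the litter block 10. Among all tested genes 1.67% were higher without litter 1 and 4.34% without the litter block.

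Lama2, the laminin chain of muscle and stromal basement membranes, measured 103, 131 and 184 CPM at 2 h and 671, 316 and 455 CPM at 48 h. All 48 h values lay above all 2 h values, with litter 1 moving from the lowest of its group to the highest. Its fold change was 1.75 ± 0.28 (adjusted p = 0.00279). Col4a4 went from 360.2, 518 and 433 CPM to 1718, 1147 and 1016 CPM (1.54 ± 0.22, adjusted p = 0.0018) and Col4a3, which assembles with it, from 64.6, 79.8 and 70.4 CPM to 292, 208 and 146 CPM (1.52 ± 0.18, adjusted p = 0.00111). The more widely used chain Col4a1, named after its values were seen, went from 5127, 5979 and 6363 CPM to 6854, 6926 and 7114 CPM, a smaller rise (0.26 ± 0.08, adjusted p = 0.0442). Hspg2, perlecan, went from 399, 342 and 608 CPM to 1016, 563 and 952 CPM, overlapping through litter 2 (0.90 ± 0.17, adjusted p = 0.0055).

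Part of this rise stood after 12 h. The list median was 0.20 for 12 h minus 2 h, 0.26 for 48 h minus 12 h and 0.32 for 48 h minus 0 h. Lama2 averaged 163 ± 33.3 CPM at 0 h and 247 ± 64.3 CPM at 12 h, and Col4a4 487 ± 143 CPM and 653 ± 87.8 CPM. Both were called for 48 h minus 0 h (adjusted p = 0.0163 and 0.00791).

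Interstitial matrix genes had more rises than falls. Of 29 tested, 7 rose (24.1%) and 2 fell (6.9%), against 10.5% higher and 12% lower among all tested genes. The median was 0.05, and 4 rose and 0 fell without the litter block or without litter 1. Fbn2, a fibrillin, rose from 85.9, 88.3 and 109 CPM to 246, 165 and 169 CPM (1.01 ± 0.17), and Col6a3, a collagen VI chain, by 0.94 ± 0.14, as did Col6a1 (0.66 ± 0.10) and the fibrillin Fbn1 (0.58 ± 0.13). The matricellular genes Tnc and Thbs1 fell. Tnc went from 62.9, 22.4 and 116 CPM to 15.3, 10.4 and 59.2 CPM, lower in each litter but with wide spread and overlap (-1.32 ± 0.24, adjusted p = 0.0047). Thbs1, the secreted glycoprotein thrombospondin, went from 1136, 882 and 2327 CPM to 518, 634 and 912 CPM (-0.99 ± 0.20, adjusted p = 0.00813).

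Among matrix proteases and the plasminogen system, 7 of 19 genes rose, against 10.5% higher among all tested genes, and 1 fell (median 0.20). The 7 became 2 without the litter block, 1 without litter 1 and 4 to 7 with 1 library left out. Adamts9, a secreted protease, rose from 10.7, 19.5 and 14.2 CPM to 40.2, 30.5 and 26.6 CPM (1.10 ± 0.23, adjusted p = 0.00893), and Adamts15 rose by 0.97 ± 0.23.

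**Figure D4:**
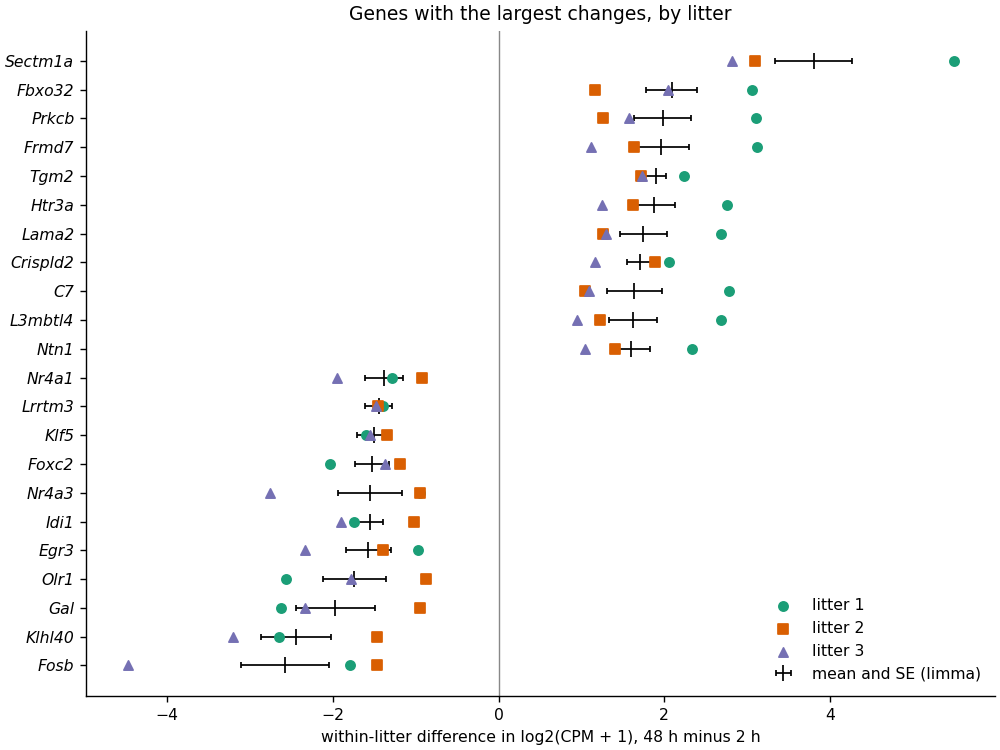
Within-litter differences in log2(CPM + 1), 48 h minus 2 h, for 11 of the 12 named genes of each direction, taken by size from those called whose groups did not overlap, with coloured points for the litters and a black bar for the mean and its SE. Litter 1 gave the largest difference for all 11 risen genes shown, and litter 3 for 7 of the 11 fallen genes shown.

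By size, the gene that rose most was Sectm1a, which encodes a secreted and transmembrane protein. It had 1.24, 4.97 and 2.52 CPM at 2 h and 99.6, 50.1 and 23.9 CPM at 48 h, with no overlap and the greatest change in litter 1 (3.80 ± 0.46, adjusted p = 0.00111). Tgm2, a transglutaminase that crosslinks matrix proteins, went from 91.2, 84.4 and 75.8 CPM to 432, 280.0 and 254 CPM. The 2 h values were close together and far below the 48 h values (1.89 ± 0.12, adjusted p = 0.000135), and the difference was 2.23, 1.72 and 1.73 in the 3 litters.

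Fbxo32, a ubiquitin ligase known from wasting muscle, rose from 20.8, 49.7 and 28.1 CPM to 181, 112 and 119 CPM (2.09 ± 0.31). Prkcb, protein kinase C beta, rose from 16.1, 40.3 and 26.5 CPM to 147, 97.8 and 81.1 CPM (1.98 ± 0.34). In both genes litter 1 started lowest and ended highest.

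Genes with few reads at 2 h in the same group of 12 were Frmd7 (1.96 ± 0.34), Htr3a, a serotonin-gated channel subunit (1.87 ± 0.25), and L3mbtl4, a chromatin reader (1.62 ± 0.29), each with a 2 h mean under 3 CPM. Crispld2, a secreted glycoprotein, rose from 43.1, 31.3 and 57.3 CPM to 182, 118 and 130.0 CPM (1.70 ± 0.16). C7, a component of complement, had 69.7, 60.8 and 118 CPM at 2 h and 484, 126 and 253 CPM at 48 h (1.64 ± 0.33), and Ntn1, a guidance protein, 6.11, 5.89 and 5.82 CPM and 34.8, 17.2 and 13.1 CPM (1.59 ± 0.24). The litter 1 value at 48 h was the highest of its group for each of these 6 genes.

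Besides the immediate early and sterol genes, those that fell most were of mixed kinds. Klhl40, known from muscle, went from 47.2, 28.8 and 92.8 CPM to 6.66, 9.75 and 9.17 CPM (-2.44 ± 0.43, adjusted p = 0.00391). Gal, the neuropeptide galanin, went from 91.5, 72.8 and 150.5 CPM to 13.996, 37.1 and 29.1 CPM (-1.97 ± 0.48, adjusted p = 0.0156), and Olr1, a receptor for oxidised lipoprotein, from 68.0, 57.8 and 83.5 CPM to 10.7, 30.9 and 23.6 CPM (-1.74 ± 0.38, adjusted p = 0.0103). Litter 2 had the lowest 2 h value and the highest 48 h value for each of the 3. The call for Gal was lost when any library of litter 1 or litter 3 at 2 h or 48 h was left out, that for Olr1 without the 2 h library of litter 3. Both were lost without litter 1.

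The transcription factors Foxc2, with 82.4, 51.2 and 85.0 CPM at 2 h and 19.4, 21.9 and 32.3 CPM at 48 h (-1.53 ± 0.20), and Klf5, with 17.7, 12.7 and 23.8 CPM and 5.15, 4.40 and 7.46 CPM (-1.50 ± 0.21), fell without overlap and passed under all 25 alternative settings. Lrrtm3, a synaptic adhesion gene, fell from 4.66, 10.4 and 6.28 CPM to 1.15, 3.15 and 1.60 CPM, by nearly the same amount in each litter (-1.45 ± 0.16, adjusted p = 0.000885). It was also lower at 48 h than at 0 h (-1.15 ± 0.16, adjusted p = 0.0056), where 2.19% of tested genes were called lower.

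Several lists linked to growth and cell shape had lower calls and 0 higher, against a background of 12% lower. Ribosome biogenesis had 14 of 24 genes lower and 0 higher with a small median of -0.22, for example Rrp12 (-0.46 ± 0.07) and Gnl3 (-0.45 ± 0.07), and 10 were lower after TMM scaling. Targets of YAP and serum response factor had 7 of 15 lower and 0 higher (median -0.32), led by Ccn1, a secreted matricellular protein, at 361, 309 and 501 CPM and 166, 230.2 and 147 CPM (-1.10 ± 0.23), and 5 were lower after TMM scaling. BMP and TGF-beta signalling had 8 of 20 lower and 0 higher (median -0.25), among them Id4 (-0.90 ± 0.15), Bmp6 (-0.74 ± 0.15) and Nog, a BMP antagonist (-0.74 ± 0.11). Of NRF2 antioxidant genes 5 of 13 fell and 0 rose, with Gclc, the enzyme that limits glutathione synthesis, going from 85.0, 87.7 and 92.4 CPM to 50.7, 58.5 and 40.8 CPM (-0.82 ± 0.11).

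Without the litter block the lower counts were 6 for ribosome biogenesis, 3 for the YAP and serum response factor targets, 5 for BMP and TGF-beta and 2 for NRF2, and without litter 1 they were 1, 1, 3 and 2. Heat shock chaperones had 4 of 15 lower and 0 higher (2 without the block and 1 without litter 1), with Hspa4l (-0.73 ± 0.22) and Cryab (-0.57 ± 0.08) the furthest down. Among all tested genes 12% were lower, 3.96% without the block and 1.89% without litter 1. The call for Hspa4l was lost under 11 of the 25 alternative settings, among them the fit without the block and without litter 1.

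Other lists had more calls higher than lower, against a background of 10.5% higher. Of 12 glucocorticoid-responsive genes 6 rose and 0 fell (median 0.41), including Fkbp5, a chaperone of the receptor, from 103, 110.4 and 89.2 CPM to 144, 144 and 126 CPM (0.45 ± 0.08), and the metallothioneins Mt1 (0.57 ± 0.13) and Mt2A (0.67 ± 0.16), whereas 2 rose without the block, 1 without litter 1 and 1 to 6 with 1 library left out. Of 18 ATF4 stress genes 5 rose and 0 fell, led by Trib3 (0.94 ± 0.29) and Ddit3 (0.72 ± 0.12). The 5 became 3 without the block, 2 without litter 1 or litter 3 and 2 to 6 with 1 library left out, and the call for Trib3 was lost under 13 of the 25 alternative settings. The insulin-like growth factor system had 4 of 16 higher and 1 lower, with 1 higher and 0 lower without the block, 0 and 0 without litter 1 and 2 to 5 higher with 1 library left out. Igf2r (0.56 ± 0.10) and Insr (0.50 ± 0.10) rose, and the binding protein Igfbp3 fell from 318, 387 and 285 CPM to 200.01, 277 and 201 CPM (-0.55 ± 0.12).

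Notch pathway genes changed in both directions, beside a background of 10.5% higher and 12% lower. The receptors Notch1 (0.81 ± 0.12), Notch2 (0.44 ± 0.09) and Notch3 (0.42 ± 0.10) and the ligand Jag2 rose (0.46 ± 0.11), and the ligand Jag1 (-0.53 ± 0.15), the modifier Lfng (-0.40 ± 0.06) and the target Hes1 (-0.24 ± 0.07) fell, leaving 2 of 9 not called. Of these, 3 rises and 0 falls were called without the litter block, and 1 rise and 0 falls without litter 1. The call for Hes1 was lost under 15 of the 25 alternative settings, among them TMM scaling, edgeR and DESeq2. Of 16 circadian clock genes 2 rose, Dbp (0.80 ± 0.15) and Npas2 (0.76 ± 0.15), and 5 fell, with Nfil3 at -0.47 ± 0.08. The share that rose, 12.5%, lay near the background, and the share that fell was 31.25%. Without the block 2 rose and 2 fell.

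Factors of the germ cell niche also changed in both directions. Cxcl12, a chemokine, rose from 5.80, 5.26 and 7.88 CPM to 35.7, 11.2 and 13.1 CPM (1.36 ± 0.30, adjusted p = 0.0108), and Csf1, the growth factor of macrophages, from 73.1, 71.1 and 61.0 CPM to 103, 97.9 and 87.3 CPM (0.49 ± 0.05, adjusted p = 0.000825). Kitlg, the stem cell factor of Sertoli cells, fell from 146, 238 and 153 CPM to 136, 163 and 103 CPM with overlap (-0.40 ± 0.09, adjusted p = 0.0113), as did Lif (-0.91 ± 0.27) and Pdgfa (-0.64 ± 0.14). These are 2 higher (15.38%) and 3 lower (23.08%) of 13, against 10.5% and 12% of all tested genes. Without the litter block they were 2 and 1.

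Few genes of cell division were called. DNA replication had 3 of 27 genes higher, Pola1 (0.42 ± 0.09), Mcm2 (0.25 ± 0.06) and Tyms (0.21 ± 0.05), and 0 lower, and mitosis had 1 of 20 lower, Ttk (-0.59 ± 0.12), and 0 higher. Glycolysis had 1 of 18 lower and 0 higher, the nuclear-encoded respiratory chain 2 of 17 lower and 0 higher, and the hypoxia response 2 of 12 lower and 0 higher. The background is 10.5% higher and 12% lower, and nothing is read from these small counts. In the fit without the litter block they were 1 higher for replication, 1 lower for mitosis, 0 for glycolysis and the respiratory chain and 1 lower for the hypoxia response.

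Marker lists of the cell types in the mixture did not move alike. Among all tested genes 10.5% were higher and 12% lower. Summed over the 22 Sertoli cell markers in the table the level was 5371, 5906 and 4669 CPM at 2 h and 4601, 5457 and 4178 CPM at 48 h, lower in each litter, with 3 of 17 tested markers lower and 0 higher, and 0 lower without the litter block. The list median was 0.05, and 4 tested markers were higher and 4 lower in each litter. The 3 were Testin, a gene of Sertoli cell junctions (-0.79 ± 0.14), Clu, clusterin (-0.47 ± 0.10), and Kitlg. Clu made up most of the fall of the sum, and the other 21 markers summed to 3902, 4422 and 3572 CPM at 2 h and 3634, 4305 and 3377 CPM at 48 h. The 13 Leydig cell markers summed to 847, 1103 and 955 CPM and 1759.7, 1335 and 1404 CPM, higher in each litter and without overlap. Of 11 tested, 5 rose and 0 fell, namely Cyp17a1, Cyp11a1, Nr5a1, Pdgfra and Nr2f2, and 3 rose without the litter block. Pdgfra, a growth factor receptor also found on other stromal cells, had 144, 262 and 199.9 CPM at 2 h and 796, 467 and 527 CPM at 48 h (1.56 ± 0.29, adjusted p = 0.00519). Nr2f2, a stromal nuclear receptor, rose from 207, 211 and 192 CPM to 368, 273 and 306 CPM (0.62 ± 0.10). These 2 genes, singled out after their values were seen, carried most of the higher sum, since the other 11 markers summed to 495, 629.8 and 564 CPM at 2 h and 595, 595 and 571 CPM at 48 h, lower at 48 h in litter 2 and overlapping. How far a change in Leydig or stromal cells takes part in the steroid or basement membrane results was not tested.

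Macrophage markers were higher in each litter. Their 16 genes summed to 216, 39.8 and 120.3 CPM at 2 h and 423, 72.5 and 542 CPM at 48 h, with litter 2 lowest at both times. Of 15 tested, 7 rose and 0 fell (median 1.09), against 10.5% higher among all tested genes. Lyz2, lysozyme, measured 117, 13.3 and 60.9 CPM and 209.8, 36.2 and 268 CPM, and the groups overlapped (1.44 ± 0.30, adjusted p = 0.00839). C1qc, a complement subunit, measured 3.15, 0.292 and 1.47 CPM and 12.2, 0.594 and 21.7 CPM (1.73 ± 0.50, adjusted p = 0.0314). Without the litter block 1 marker passed, without litter 1 also 1, without litter 3 2, and without any 1 of the 2 h libraries or the 48 h library of litter 1 or 3 2. Without the 48 h library of litter 2 the count was 12, and edgeR and DESeq2 on reads called 11. Cd163 was listed at 0 in all 6 libraries.

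Germ cell markers had 5 of 19 lower, against a background of 12%, and 0 higher (median -0.33), with Id4, Taf4b (-0.64 ± 0.10), Dazl (-0.53 ± 0.15) and Ret (-0.44 ± 0.12) the furthest down. Id4 also stands in the BMP and TGF-beta list. The call for Dazl was lost under 12 of the 25 alternative settings and that for Ret under 10, the fit without the litter block among them. The germ cell markers summed to 214, 200.04 and 219.7 CPM at 2 h and 210.0, 144 and 164 CPM at 48 h. The median within-litter difference of the tested germ cell markers was 0.06, -0.58 and -0.38 in litters 1, 2 and 3, and 2 were lower without the litter block, 1 without litter 1 and 2 to 7 with 1 library left out. Endothelial markers had 3 of 8 lower and 0 higher, Erg (-0.84 ± 0.14), Kdr (-0.54 ± 0.14) and Plvap (-0.46 ± 0.13). Only 1 was lower without the block, without litter 1 or without the 2 h library of litter 1 or 3, and the call for Plvap was lost under 12 of the 25 alternative settings. Contractile genes of myoid and smooth muscle cells had 2 of 15 higher, Myh11 (0.83 ± 0.15) and Des (0.56 ± 0.11), and 3 lower, among them Actg2 (-0.50 ± 0.14). These shares were 13.33% and 20%, beside 10.5% higher and 12% lower among all tested genes. Without the block 2 were higher and 1 lower. The call for Actg2 was lost under 9 of the 25 alternative settings. No mesothelial marker of 7, and none of 5 markers of blood cells, T cells, mast cells and neurons, was called. Hbb, Cpa3 and Snap25 were listed at 0 in all 6 libraries.

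**Figure D5:**
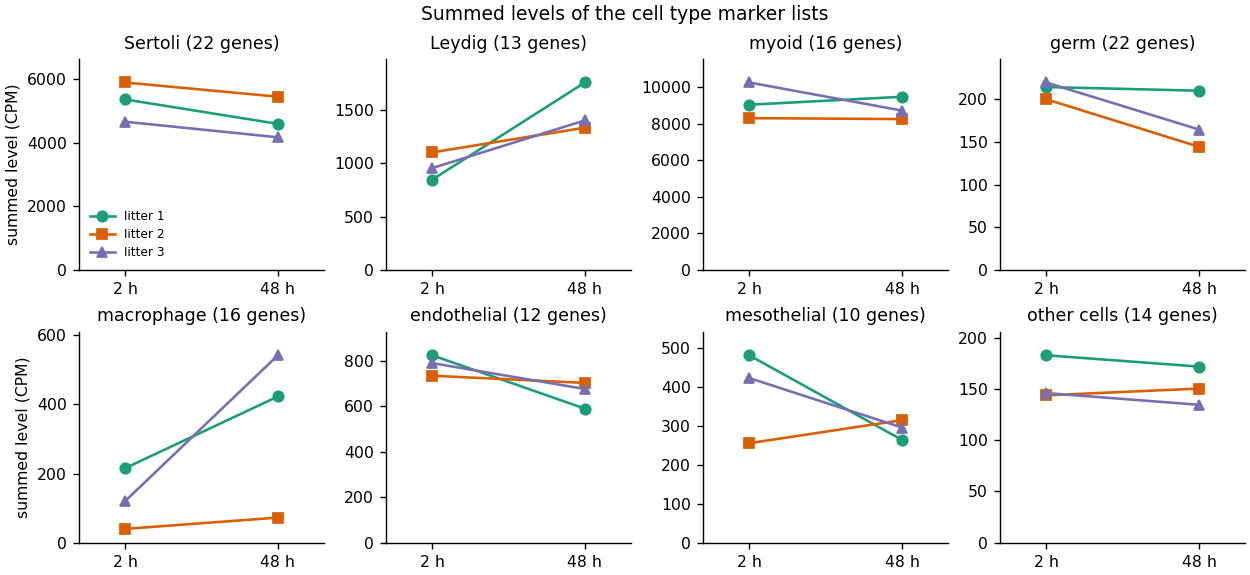
Summed level in CPM of 8 cell type marker lists at 2 h and 48 h, 1 line per litter, with the number of listed genes in the table in each title and every axis starting at 0. The Leydig cell and macrophage sums were higher at 48 h in each litter and the Sertoli cell sum was lower in each.

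The litters took part unequally. Litter 1 had the largest difference for 697 of the 1282 genes that rose, litter 3 for 427 and litter 2 for 158, and among the 1469 that fell the counts were 630, 552 and 287. The immediate early falls were greatest in litter 3 and the basement membrane rises in litter 1. Since calls were made on these same differences, the counts describe the litters and were not tested.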

How the data were processed

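RNA of the 12 libraries of the hormone experiment was analysed, 6 of them in the comparison. Per the labels' protocols, poly-A RNA was made into non-directional libraries, so overlapping and antisense genes cannot be told apart. STAR, without a stated version, and the rat build mRatBN7.2 are named in the submitters' processing notes. The counting tool and gene annotation are not given in the sources used here. The authors deposited CPM for 21425 genes. Divided by what 1 read was worth in its library, every value came out whole within 0.01 read, which gave back the read numbers, and 4.25 to 4.71% of reads lay outside the listed genes. The spread between replicates was 36.1 (2 h) and 28.6 (48 h) times that of counting.

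Genes with at least 1 CPM in at least 3 of the 6 libraries were kept (12200). Differences in log2(CPM + 1) were tested with limma 3.58.1 in R 4.3.3 on all 12 libraries, with time and litter as terms, an empirical Bayes trend, two-sided tests and Benjamini-Hochberg adjustment over all tested genes. The 3 replicates per group are litters, and the pairing comes from the titles and the design text. For the 18 same-litter library pairs, deviations from the group means correlated across genes at a median of 0.489 (-0.0130 to 0.751), with 16 above 0.1, and for the 36 pairs of different litters at -0.270. Of these 36 pairs 4 were above 0.1, the highest at 0.316. The 3 same-litter pairs at 2 h and 48 h had a median of 0.502, the lowest 0.0365, in litter 1. The 48 h library of litter 1 was the weakly paired one. It correlated at 0.196, 0.0365 and -0.0130 with the 0, 2 and 12 h libraries of its litter. Its correlation with the 12 h library of litter 3 was 0.269.

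The 41 gene lists hold 753 symbols, of which 722 were found in the table, 1 of them by synonym, and 630 tested. The libraries compared, the lists and the panel of 20 genes were chosen with earlier results of these data known. Named genes were the 12 largest rises and 12 largest falls, taken from calls that went 1 way in all litters, did not overlap and averaged 5 CPM or more in the higher time. Added to these were up to 4 called members per list and direction, and the panel. Promoters are RefSeq entries of GRCr8, matched by symbol for 9733 tested genes. Alternatives were other pseudocounts and filters, TMM scaling, fits without the litter block or with the 6 libraries alone, edgeR 4.0.16 and DESeq2 1.42.0 on the recovered reads, and each library or litter left out in turn. The script was tested on simulated data. Results of some genes are not reported here.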

Additional observations from a re-analysis of the deposited data

How the results depend on the processing

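Of 177 called genes that were named, 38 passed under every one of the 25 alternatives that tested them (3 of the 38 were not tested under at least 1) and 0 changed direction. Most such calls were lost with the 6 libraries and no block (69.5% of the 177), then without litter 1 (64.4%, 114 calls) and without the litter block in all 12 libraries (45.2%, 80 calls). Either change of pseudocount cost 2 calls, edgeR 5 and DESeq2 9. On the recovered reads edgeR called 2713 genes and DESeq2 2635.

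The pairing by litter mattered for the number of calls. With no litter block in the 12 libraries 1013 genes were called, 4.34% of tested genes higher and 3.96% lower. With the 6 libraries alone 1389 were called with the block (5.37% higher and 6.02% lower) and 285 without it (1.22% higher and 1.12% lower). Leaving out 1 library or 1 litter gave 434 to 3050 calls, with 1.67 to 11.8% of tested genes higher and 1.89 to 13.2% lower. The lowest of these came without litter 1, and the cause was not tested. With no filter on low values 17059 genes were tested and 2362 called, which was 6.33% of tested genes higher and 7.52% lower. Of these calls 2221 were among the 2751. The other settings kept these values within 1.5 times. Of the calls without the block, all 1013 were among the 2751, and of the 434 without litter 1, 423 were.

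Differences that changed sign belonged to genes that were not called. Inhba was 0.013 with TMM scaling and 0.0063 with DESeq2, Fshr was 0.0023 with DESeq2, and Cyp19a1 was -0.16 at a pseudocount of 0.1. With 1 library or 1 litter left out, Crem ranged from -0.41 to 0.00035, Cyp19a1 from -0.17 to 0.48, Fshr from -0.0949 to 0.033, Gdnf from -0.097 to 0.24, Hsd17b3 from -0.070 to 0.52 and Inhba from -0.14 to 0.11.

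Depth differed between the groups and was not equalised, and genes under 1 CPM were not tested.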

Other observations

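Genes ranked just after the 12 that changed most in each direction were looked at after their values were seen. They were ranked among the same calls, which went 1 way in all litters and did not overlap between the times. Among the next 12 that fell, Hmgcs1, Insig1, Msmo1 and Sqle belong to cholesterol synthesis and uptake, and Fos and Egr2 to the immediate early factors. Sqle, an epoxidase of sterol synthesis, went from 109, 94.4 and 102 CPM to 42.9, 53.7 and 43.0 CPM (-1.12 ± 0.12), and Egr2 from 12.5, 17.2 and 24.8 CPM to 5.21, 10.9 and 7.99 CPM (-1.09 ± 0.20). That none of these overlapped between the times follows from the rule of choice. Tnfrsf12a, the receptor of the cytokine TWEAK, fell from 143, 116 and 201 CPM to 54.7, 82.6 and 65.0 CPM (-1.16 ± 0.23), and Pvr, an adhesion receptor of the nectin family, by 1.36 on the log2 scale.

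Among the next 12 that rose, Selenop, a selenium transport protein, went from 91.8, 141 and 148 CPM to 429.8, 320.1 and 332 CPM (1.52 ± 0.19). Adamtsl2, a secreted matrix protein, went from 80.9, 86.2 and 96.8 CPM to 271, 229 and 268 CPM (1.53 ± 0.12, limma adjusted p = 0.000289), with 48 h values close together. Adcyap1r1, a receptor of the neuropeptide PACAP that raises cyclic AMP, rose from 8.23, 9.30 and 5.96 CPM to 32.8, 27.2 and 17.3 CPM (1.57 ± 0.17). Dhrs3, which reduces retinal to retinol, rose from 3.53, 2.14 and 3.76 CPM to 14.5, 8.20 and 11.5 CPM (1.57 ± 0.18). Of 15 tested genes of retinoic acid synthesis, breakdown and receptors, 1 rose and 1 fell (6.67% each). Among all tested genes 10.5% were higher and 12% lower, and nothing is read from these counts. The gene that fell was Rdh10, which works in the opposite direction to Dhrs3 (-0.32 ± 0.10). Its call was lost under 20 of the 25 alternative settings. Irs3, an insulin receptor substrate, went from 1.73, 1.80 and 1.19 CPM to 8.91, 4.46 and 5.44 CPM (1.46 ± 0.23). Selenop, Adamtsl2, Adcyap1r1, Dhrs3 and Irs3 were each called under all 25 alternatives, except that Irs3 was not tested with the filter at a mean of 5 CPM.

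Small counts were called in the lists of antigen presentation and inflammation, beside a background of 10.5% higher and 12% lower. The shares were 16.67% higher and 0% lower for interferon genes, and 18.18% in each direction for inflammatory genes. Of 12 interferon response genes 2 rose, Tap1, which carries peptides for presentation, from 17.5, 17.5 and 16.6 CPM to 26.6, 25.4 and 30.1 CPM (0.64 ± 0.08) and B2m (0.32 ± 0.08), and 0 fell (median 0.23). Of 22 listed cytokine and NF-kappaB feedback genes, 11 passed the filter on low values, and 2 of them rose and 2 fell (median 0.23). Ptgs2, the inducible cyclooxygenase, fell from 3.96, 5.16 and 9.76 CPM to 1.94, 1.66 and 4.08 CPM (-1.02 ± 0.27), with the highest value at both times in litter 3, and Icam1 rose (0.48 ± 0.11). Of 18 cell cycle inhibitors and p53 targets 2 rose and 2 fell, and 6 rose and 1 fell with DESeq2. Of 15 Wnt pathway genes 1 rose, Lef1 (0.42 ± 0.14), and 2 fell, Axin2 (-0.36 ± 0.11) and Nkd2 (-0.48 ± 0.11), and of 17 endoplasmic reticulum chaperones 2 rose, Edem1 (0.19 ± 0.05) and Sel1l (0.17 ± 0.05), and 0 fell. In the fit without the litter block none of the p53, Wnt or chaperone genes was called, 1 interferon and 1 inflammatory gene rose, and 0 of both fell. The call for Lef1 was lost under 17 of the 25 alternative settings, that for Axin2 under 13, that for Sel1l under 12 and that for Edem1 under 10.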
